A study of Homo sapiens with 4 samples.

Results

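The axon guidance ligands and receptors are the semaphorins, ephrins, netrins and Slits, and the plexins, neuropilins, Eph, Robo and UNC5 receptors that read them. They were found by gene symbol in the gene count table from RKO cells, and 55 of the 15357 rows matched. In the GENCODE 29 annotation 68 protein-coding genes carry such symbols, and the other 13 were not analysed here. RKO is a human colorectal cancer line that carries wild-type p53. The 4 samples were 2 of RKO cells infected with a lentivirus expressing a control shRNA (labelled vector) and 2 of RKO cells infected in the same way with CHD7 shRNA-2 (labelled shCHD7_2). Both groups held stably infected cells, and only 1 CHD7 hairpin was sequenced, so the loss of CHD7 and other effects of that hairpin cannot be told apart. Nothing in the labels says that the samples of a group were separate infections, so the p-values measure the spread between these samples, which may be technical.

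Axon guidance molecules were named for steering growing nerve fibres, but most are also made by epithelial and cancer cells, where they act on adhesion, migration and cell shape. Secreted class 3 semaphorins bind neuropilins, which signal through A-type plexins, while most membrane-bound semaphorins bind plexins directly. Ephrins are held on the cell surface and bind Eph receptor tyrosine kinases on the neighbouring cell, netrins bind DCC and UNC5 receptors, and Slits bind Robo receptors. CHD7 is a chromatin remodeller that has been linked to semaphorin genes in the neural crest. The comparison of the groups therefore asked what happened to this family in a colorectal line when CHD7 was lowered.

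Read totals lay between 15734679 and 16068650 counts per sample, and the 10 most abundant genes took 5.16% to 5.59% of each. CHD7, the targeted gene, had 85.4 and 91 CPM with the control shRNA against 55.5 and 50.1 with CHD7 shRNA-2, and it fell by 0.74 on the log2 scale (SE 0.088, adjusted p = 4.15e-06 in edgeR). CPM here are counts scaled to library sizes after TMM normalization, and FPKM are the deposited values scaled for gene length and depth, used wherever levels of different genes are compared. Of the 8 epithelial markers listed, EPCAM (mean 6.7 FPKM), KRT8 (12.3), KRT18 (58) and CDX2 (5.1) were present. CDH1, which encodes E-cadherin, had 0, 0, 0 and 1 counts, and LGALS4 had at most 1 count in any sample. KRT19 and VIL1 were not in the table. The summed FPKM of the 6 epithelial markers in the table ran from 75.3 to 81.2 in the control samples and from 81.6 to 90.3 in the CHD7 shRNA-2 samples. The neuronal markers summed to 11.4 to 11.5 against 13.6 to 13.8 FPKM, nearly all of it TUBB3, with MAP2, SNAP25, ELAVL3 and SYT1 at 2 counts or fewer in every sample. The neural crest markers summed to 2.65 to 3.57 against 2.66 to 2.7 FPKM, and SOX10 had at most 1 count. Most of that sum was TFAP2A, at 2.96, 2.27, 2.25 and 2.41 FPKM, controls first (log2 -0.2, adjusted p = 0.49 in edgeR). SOX9 was also present, with 36, 22, 20 and 17 counts, controls first. Its log2 difference of -0.68 did not pass the test (adjusted p = 0.208 in edgeR). The fibroblast markers stayed at or below 0.13 FPKM and the endothelial ones at or below 0.03. The leukocyte markers summed to 495 to 530 against 602 to 611 FPKM, almost all CD68. The TUBB3 and CD68 sums were higher in both CHD7 shRNA-2 samples, and their part in the results was not tested. In bulk RNA, fewer cells of a type and less RNA per cell cannot be told apart. No marker of any list passed the threshold of adjusted p under 0.05 and at least 1.5-fold.

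RKO cells expressed a broad set of these genes. Of the 55 members, 16 had a mean of at least 10 FPKM, 19 lay between 1 and 10, and 20 were below 1. EFNB2, the gene of the transmembrane ligand ephrin-B2, was the highest, at 60.1 and 59.36 FPKM in controls and 71.51 and 67.74 with CHD7 shRNA-2. EPHA2, an Eph receptor abundant in many carcinomas, followed with 51.36, 46.9, 55.8 and 59.45 FPKM in control 1, control 2, CHD7 shRNA-2 sample 1 and sample 2, the order used throughout. EPHB4, the principal receptor of ephrin-B2, had 24.63, 22.87, 25.55 and 27.54 FPKM. Both partners of this pair were therefore present, with 2.52 times as much EFNB2 as EPHB4 in the control samples and 2.63 times as much in the CHD7 shRNA-2 samples. The leading semaphorins were the secreted SEMA3D, with a mean of 31.6 FPKM, and SEMA3A, with 20. The leading plexin was PLXNB2, with a mean of 26.9 FPKM, and NRP1 exceeded NRP2 by 32 times in the control samples. SLIT1 and SLIT3 were barely detected, with at most 1 count of either in any sample. SLIT2 and ROBO2 were not among the 55 members, so their levels are not known here. ROBO1 had 2.42, 2.5, 2.1 and 2.48 FPKM and ROBO3 had 3.76, 3.34, 2.69 and 3.78.

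**Figure D1:**
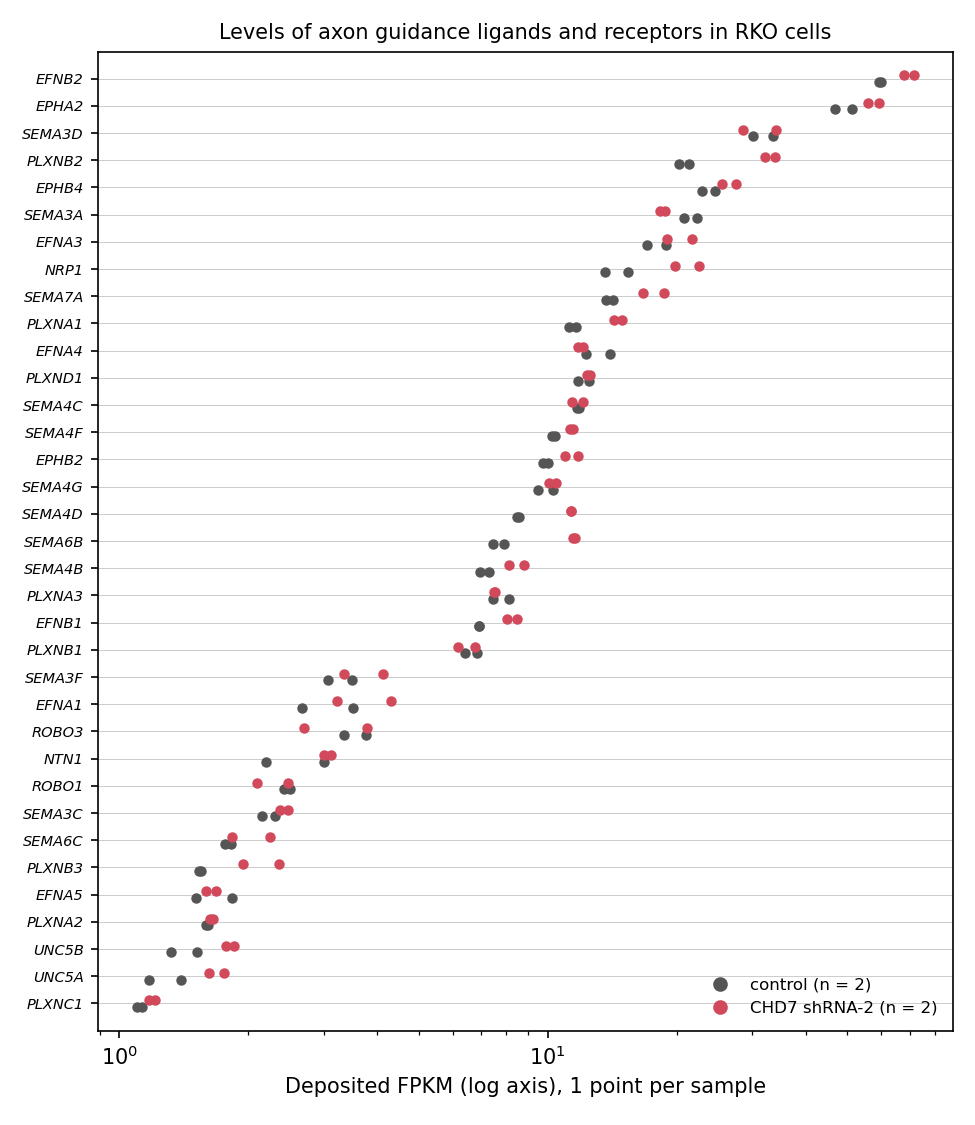
Deposited FPKM on a log axis for the 35 members with a mean of at least 1 FPKM, with 1 point per sample, control samples in grey and CHD7 shRNA-2 samples in red. EFNB2 and EPHA2 lead, and for PLXNB2, NRP1, SEMA4D and SEMA6B the red points lie clear to the right of the grey ones.

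Reads of 44 members sufficed for a test, and where they changed, they rose. PLXNB2, SEMA6D and EPHB3 passed the threshold of adjusted p under 0.05 and at least 1.5-fold, all 3 higher with CHD7 shRNA-2, and no member was called lower, by edgeR or by DESeq2 (14 members were higher and 1, SEMA3A, lower at an unadjusted p under 0.05 in edgeR, 11 and 1 in DESeq2). Among the 11955 genes tested, 1.51% were called higher and 1.37% lower. No share over all genes was computed for the counts at an unadjusted p, here or below, so they have no background to be read against. Of the 3 members called, SEMA6D and EPHB3 passed the filter on low counts only through the CHD7 shRNA-2 samples. Without the fold threshold, 8 members passed, all higher, which adds SEMA6B, NRP1, PLXNA1, SEMA4D and SEMA7A. Of all genes tested, 4.94% were higher and 6.54% lower on that rule. The count of 8 was not stable to leaving out 1 sample: it was 4 without control 1, 2 without control 2, 9 higher and 1 lower without CHD7 shRNA-2 sample 1, and 6 without CHD7 shRNA-2 sample 2. It was 5 with the replicate block, where PLXNA1, SEMA4D and SEMA7A dropped out, and 4 in DESeq2, where SEMA6D, EPHB3, SEMA4D and SEMA7A did. With no filter on low counts it was 1, PLXNB2.

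In most members the difference was small. Both CHD7 shRNA-2 samples exceeded both control samples in 26 of the 44 members and lay below both in 3, with overlap in the other 15. Of all genes tested, 26.4% lay above and 27.3% below. The median log2 fold change was 0.177 over the members and 0.001 over all genes tested. It was 0.073 without CHD7 shRNA-2 sample 2, and between 0.143 and 0.208 without any other single sample. A filter on low counts can favour genes that are high in 1 group, and NTN4 and EPHB6, like SEMA6D and EPHB3, passed it only that way. The 38 members that passed it in both groups had a median of 0.148, with 27 higher and 11 lower. The 11585 such genes among all tested had a median of -0.002, with 5755 higher and 5830 lower. The member counts are over a chosen list, and no test was made of the list as a whole.

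**Figure D2:**
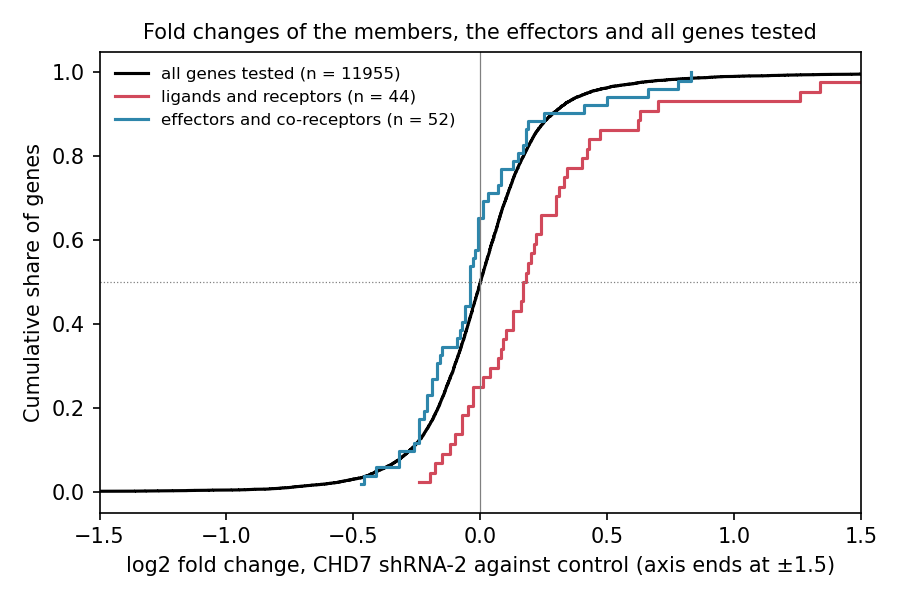
Cumulative share of genes (vertical axis) by log2 fold change, CHD7 shRNA-2 against control (horizontal axis), for all 11955 genes tested, the 44 ligands and receptors and 52 effectors and co-receptors. The curve of the ligands and receptors lies to the right, with a median of 0.177 against 0.001 for all genes and -0.039 for the effectors; 4 members, SEMA6D among them, had passed the filter on low counts only through the CHD7 shRNA-2 samples.

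Promoters are shown for the called members because CHD7 works on chromatin at promoters and enhancers. PLXNA1, which rose at adjusted p under 0.05 without being called, is shown beside them. SEMA4D and SEMA7A, in the same position, are not shown. Each sequence covers 250 bases before to 50 after 1 annotated RefSeq start on GRCh38.p14, 5′ to 3′ on the gene's strand, and which start RKO cells use was not measured. Capitals mark GC boxes (GGGCGG, or CCGCCC on the other strand) and the E-box CACGTG. The 4 are those of the called members, PLXNB2 (chr22:50301620-50301919, minus strand), SEMA6D (chr15:47183839-47184138, plus strand) and EPHB3 (chr3:184561535-184561834, plus strand), and of PLXNA1 (chr3:126982865-126983164, plus strand).
PLXNB2: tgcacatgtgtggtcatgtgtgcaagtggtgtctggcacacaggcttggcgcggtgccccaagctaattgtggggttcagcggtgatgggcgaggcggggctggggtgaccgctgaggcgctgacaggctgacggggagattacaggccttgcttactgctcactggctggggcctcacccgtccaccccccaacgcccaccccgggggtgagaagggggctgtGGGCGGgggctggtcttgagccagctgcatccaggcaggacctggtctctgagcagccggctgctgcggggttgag
SEMA6D: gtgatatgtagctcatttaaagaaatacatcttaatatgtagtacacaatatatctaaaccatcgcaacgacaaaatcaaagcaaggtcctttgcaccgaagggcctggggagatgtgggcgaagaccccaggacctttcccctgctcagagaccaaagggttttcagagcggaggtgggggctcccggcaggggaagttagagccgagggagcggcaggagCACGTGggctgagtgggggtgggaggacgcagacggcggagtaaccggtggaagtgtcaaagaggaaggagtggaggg
EPHB3: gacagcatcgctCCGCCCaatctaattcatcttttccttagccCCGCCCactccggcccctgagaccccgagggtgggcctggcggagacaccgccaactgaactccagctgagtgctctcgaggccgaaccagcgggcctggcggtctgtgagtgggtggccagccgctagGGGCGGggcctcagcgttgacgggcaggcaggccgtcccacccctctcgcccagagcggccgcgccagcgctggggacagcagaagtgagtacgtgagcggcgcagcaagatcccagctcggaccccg
PLXNA1: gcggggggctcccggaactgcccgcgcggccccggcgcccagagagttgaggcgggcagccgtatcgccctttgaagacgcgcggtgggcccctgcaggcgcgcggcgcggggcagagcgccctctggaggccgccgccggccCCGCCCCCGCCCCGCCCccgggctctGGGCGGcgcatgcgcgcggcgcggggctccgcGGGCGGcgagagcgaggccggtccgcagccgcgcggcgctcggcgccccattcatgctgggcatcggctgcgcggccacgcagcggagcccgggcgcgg

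The promoters differed in composition. They held 14, 13, 26 and 54 CpG dinucleotides, in the order shown, against a median of 27 over 9457 tested genes with an entry. Over the 6 members with an entry that rose at adjusted p under 0.05, the number ran from 6 to 54, with a median of 18.5. PLXNA1 was thus the highest of those 6. The start used for PLXNB2 lies inside the gene, whose 5′ end is at 50307646. Its values therefore need not describe the outermost promoter. GC boxes numbered 1, 0, 3 and 5. Of the 8 members that rose, 6 had an entry, and 5 of these held a GC box (83.3%), as did 27 of 32 other tested members (84.4%), 71.5% of tested genes and 44.6% of all 27305 promoters of this length. The E-box was in SEMA6D and SEMA4D, 2 of 6 (33.3%), in 0 of the 32 other members and in 10.4% of tested genes. That share rests on 2 genes whose rise is uncertain. SEMA6D passed the filter on low counts only through the CHD7 shRNA-2 samples, and SEMA4D had an adjusted p of 0.0609 in DESeq2. The TATA word TATAAA, the AP-1 word TGANTCA and the p53 half-site were in none of the 6, against 5.03%, 4.37% and 5.21% of tested genes. Both strands were searched, and overlapping matches were each counted.

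Among the plexins, the semaphorin receptors, the largest change was in PLXNB2, which encodes a receptor for class 4 semaphorins and lies on chromosome 22 (50274979 to 50307646). It had 135, 128, 196 and 209 CPM, or 131 ± 4.81 against 202 ± 8.57 (mean ± SD, n = 2), and the groups did not overlap. It rose 1.54-fold (log2 0.62, SE 0.077, adjusted p = 7.46e-06 in edgeR), only just past the fold threshold. Without CHD7 shRNA-2 sample 2 the log2 difference was 0.58 and the call was lost on the fold alone (adjusted p = 1.04e-08). PLXNA1, a co-receptor of neuropilins, had 106, 101, 125 and 131 CPM and rose by 0.31 in log2 (SE 0.08, adjusted p = 0.0133 in edgeR). Its groups did not overlap, but the change was below 1.5-fold, and the adjusted p in edgeR was 0.118 with the replicate block, 0.0885 without control 1 and 0.239 without control 2. PLXNB3 had 9.53, 9.44, 11.5 and 14.1 CPM and did not pass the test (log2 0.43, adjusted p = 0.0573 in edgeR). Its exons overlap SRPK3 on the same strand.

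The remaining plexins moved by no more than 0.1 in log2 in either direction. PLXNB1, the receptor best known for binding SEMA4D, had a log2 difference of -0.07 (SE 0.089), with overlapping groups. The FPKM ratio of PLXNB2 to PLXNB1 was 3.12 and 3.16 in controls and 5.19 and 5.01 with CHD7 shRNA-2. PLXNA3 had 50.6, 45.6, 44.2 and 45.7 CPM and was at -0.1, and PLXNA2 was at -0.03. PLXND1, a receptor for SEMA3E, had 64.3, 59.5, 64.4 and 66.9 CPM and was at 0.08. PLXNC1, a receptor for SEMA7A, was at 0.04. The summed FPKM of the 8 plexins went from 64.7 and 61.3 in controls to 77.1 and 80.8 with CHD7 shRNA-2.

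NRP1 encodes a co-receptor for secreted semaphorins and for VEGF. It had 70.1, 76, 101 and 91.7 CPM, again without overlap, and rose 1.32-fold (log2 0.4, SE 0.086, adjusted p = 0.00356 in edgeR). Without control 1 the adjusted p was 0.0931 in edgeR. The much scarcer NRP2 had 1.87, 2.53, 3.55 and 3.26 CPM, and its difference of 0.63 in log2 did not pass (SE 0.24, adjusted p = 0.103 in edgeR). An antisense gene overlaps an exon of each neuropilin in GENCODE 29, and whether the counting used strand is not given in the sources used here, so reads of either cannot be told from those of its antisense partner.

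The semaphorins were taken by type. Of the 9 tested from classes 4 to 7, which are held in the membrane, 8 had positive differences, 7 of them without overlap. Of all genes tested, 5993 differences were positive and 5962 negative, and 26.4% lay above without overlap. SEMA6B, SEMA4D, SEMA7A and SEMA6D rose at adjusted p under 0.05, against 4.94% of all genes. SEMA6D is in these counts although it passed the filter on low counts only through the CHD7 shRNA-2 samples. SEMA6B had 30, 27.4, 38.9 and 41 CPM (log2 0.47, SE 0.097, adjusted p = 0.00193 in edgeR). SEMA4D, a ligand of B-type plexins first described on T cells, had 40.9, 39.7, 50.5 and 51.1 CPM, with very little spread within the groups (log2 0.33, SE 0.089, adjusted p = 0.0152 in edgeR). SEMA7A, which is anchored by a lipid and also binds integrins, had 45, 43.3, 51.1 and 57.7 CPM (log2 0.3, SE 0.091, adjusted p = 0.0333 in edgeR). All 3 changed by less than 1.5-fold, and each lost its adjusted p under 0.05 in some fits. Without control 2 the adjusted p in edgeR was 0.0576 for SEMA6B, 0.193 for SEMA4D and 0.283 for SEMA7A. Without control 1 it was 0.0861 for SEMA4D and 0.117 for SEMA7A, and with the replicate block 0.103 and 0.159. DESeq2 gave an adjusted p of 0.0609 for SEMA4D and 0.115 for SEMA7A, and without CHD7 shRNA-2 sample 2 SEMA7A was at 0.236 in edgeR. SEMA4B was at 0.22, SEMA6C at 0.17, SEMA4F at 0.07, SEMA4G at 0.01 and SEMA4C at -0.03, and none of these passed the test.

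SEMA6D gave the largest fold of any member, from few reads. It lies on chromosome 15 (47184089 to 47774228) and had 4, 0, 16 and 18 counts. The ratio of the summed counts was 8.32, with an exact 95% interval for counting error only of 2.97 to 32.3. The fitted log2 difference of 2.98 (SE 0.66, adjusted p = 0.00409 in edgeR) depends on how a count of 0 is handled, since it was 7.09 without control 1. The call was lost in DESeq2 (adjusted p = 0.066), without a filter on low counts (adjusted p = 0.136 in edgeR) and without control 2 (2.01, adjusted p = 0.0654 in edgeR). At 0.17 and 0.2 FPKM in the CHD7 shRNA-2 samples, it remained below SEMA6B, SEMA4D and SEMA7A in every sample.

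None of the 5 secreted class 3 semaphorins tested passed. SEMA3A, the prototype repellent of growth cones, had 128, 142, 117 and 112 CPM, the clearest lower value among the members, and the groups did not overlap. Its log2 difference of -0.24 missed the threshold (SE 0.082, adjusted p = 0.0627 in edgeR). SEMA3D, the most abundant semaphorin, had 188, 209, 205 and 173 CPM and overlapping groups (log2 -0.07). SEMA3B was at 0.3, SEMA3F at 0.1 and SEMA3C at 0.09. Set beside its receptor, SEMA3A had 1.52 and 1.44 times the FPKM of NRP1 in controls and 0.834 and 0.921 times with CHD7 shRNA-2. By FPKM the higher of the pair thus changed from SEMA3A to NRP1. This rests on the deposited FPKM, in which NRP1 went from a mean of 14.5 to 21.2, while the fit to counts gave 1.32-fold. The change in SEMA3A did not pass the test.

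**Figure D3:**
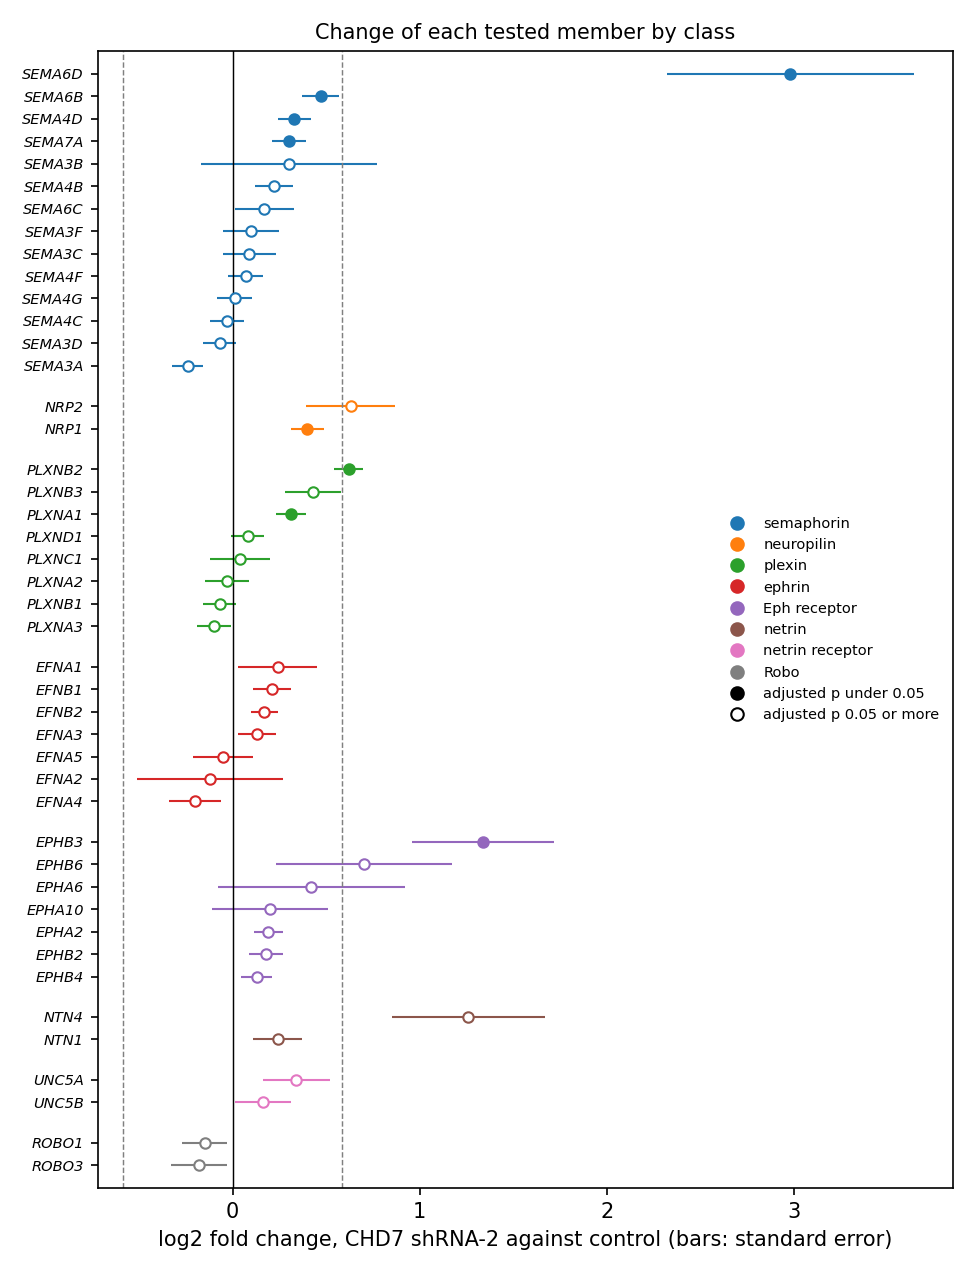
log2 fold change of each of the 44 tested members with its standard error, grouped by class; filled points have an adjusted p under 0.05 and dashed lines mark 1.5-fold in either direction. All 8 filled points lie to the right of 0, and the longest bars belong to members with few reads, such as SEMA6D, EPHB6, EPHA6 and SEMA3B.

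Among the Eph receptors, all 7 tested had positive differences and 5 lay above the controls without overlap, against 26.4% of all genes tested, but only EPHB3 passed. Of the 5, EPHB3 and EPHB6 had passed the filter on low counts only through the CHD7 shRNA-2 samples. Positive differences made up 5993 and negative ones 5962 of those over all genes tested. EPHB3, which marks the crypt base in normal intestine, lies on chromosome 3 (184561785 to 184582408) and was low here, with 13, 7, 24 and 28 counts. The ratio of its summed counts was 2.54 (exact 95% interval, counting error only, 1.49 to 4.5), and its log2 difference was 1.34 (SE 0.38, adjusted p = 0.0251 in edgeR). The call was lost in DESeq2 (adjusted p = 0.264), without a filter on low counts (adjusted p = 0.148 in edgeR), without control 2 (log2 0.95, adjusted p = 0.302 in edgeR) and without CHD7 shRNA-2 sample 2 (log2 1.22, adjusted p = 0.128 in edgeR). The abundant receptors differed little. EPHA2 had 199, 182, 209 and 224 CPM (log2 0.19, SE 0.077, adjusted p = 0.131 in edgeR). EPHB2 was at 0.18 and EPHB4 at 0.13, with SE of 0.09 and 0.083. Reads of EPHB4 could overlap those of SLC12A9 on the opposite strand.

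Among the ephrins none passed. EFNB2 had 263, 260, 303 and 287 CPM, both CHD7 shRNA-2 samples above the controls, with a log2 difference of 0.17 (SE 0.073, adjusted p = 0.137 in edgeR). EFNB1 was at 0.21 (SE 0.1). The lipid-anchored A-type ephrins went both ways, from 0.24 for EFNA1 to -0.2 for EFNA4. EFNA4 had 13.1, 14.8, 12 and 12.3 CPM. EFNA3 had 31.1, 28.1, 30.1 and 34.8 CPM, with overlap. A read-through gene model joins EFNA4 and EFNA3 in GENCODE 29, so their counts are uncertain, and an antisense gene overlaps EFNB2.

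The netrin and Slit systems had the lowest summed FPKM of the classes. In any sample the netrins reached at most 3.87, the UNC5 receptors 3.6, the Robo receptors 6.42 and the Slits 0.01. NTN4, a basement membrane netrin, had 6, 11, 20 and 22 counts and did not pass the test (log2 1.26, SE 0.41, adjusted p = 0.0505 in edgeR). NTN1, the classical netrin, had 247, 205, 266 and 279 counts (log2 0.24, adjusted p = 0.264 in edgeR). UNC5A and UNC5B, netrin receptors that can trigger apoptosis when unbound and of which UNC5B is a known p53 target, were at 0.34 (SE 0.18) and 0.16 (SE 0.15) and did not pass. ROBO1 had 276, 281, 236 and 278 counts (log2 -0.15) and ROBO3 had 247, 224, 176 and 249 (log2 -0.18), neither passing the test.

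The 11 members with too few reads for the test reached at most 13 counts in any sample, and 7 of them at most 3. They were EFNB3, EPHA1, EPHA8, NTN3, NTN5, ROBO4, SEMA3E, SEMA3G, SEMA6A, SLIT1 and SLIT3. EPHA8 had no count in any sample. No difference in these genes was tested. The ratio of summed counts was 0.881 for ROBO4 (exact 95% interval, counting error only, 0.439 to 1.75). For SEMA3E it was 1.3 (0.579 to 3.02). A small change in either direction would not be seen at such counts.

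Of 80 other genes of the pathway, a list written from general knowledge, 64 were in the table and 52 were tested. They are co-receptors and the kinases, GTPase regulators and actin-binding proteins that act below the receptors. ENAH, which encodes an actin regulator recruited by Robo and netrin receptors, was the single gene called, with 9.02, 11, 18.2 and 13.3 CPM (log2 0.66, SE 0.16, adjusted p = 0.00749 in edgeR). Its call was lost without a filter on low counts (adjusted p = 0.169 in edgeR), without control 1 (log2 0.52, adjusted p = 0.0632 in edgeR) and without CHD7 shRNA-2 sample 1 (log2 0.41, adjusted p = 0.0983 in edgeR). The 1 call among the 52 stood beside 1.51% of all genes tested called higher and 1.37% called lower, so it is near the background. At adjusted p under 0.05 with any fold, 2 of the 52 rose and 4 fell. Of all genes tested, 4.94% were higher and 6.54% lower on that rule, so these counts are near the background too. LIMK1, a kinase that inactivates cofilin, rose by 0.41 (71.4, 60.9, 86.1 and 89.8 CPM, adjusted p = 0.00374 in edgeR). RASA1, a Ras GTPase-activating protein that acts below Eph receptors, fell by 0.46 (adjusted p = 0.000461), ABL1 fell by 0.41 (adjusted p = 0.00048), PAK2 fell by 0.32 (adjusted p = 0.00752) and ABL2 fell by 0.32 (adjusted p = 0.0128), all in edgeR. Without control 2 the adjusted p in edgeR was 0.202 for LIMK1, 0.141 for PAK2 and 0.301 for ABL2. PAK2 was at 0.0529 without control 1 and 0.066 with the replicate block, and ABL2 at 0.0913 without CHD7 shRNA-2 sample 2. NTNG2, an anchored netrin relative, was at 0.78 (adjusted p = 0.0677 in edgeR). The median of the 52 was -0.039, and 10 had both CHD7 shRNA-2 samples above the controls and 19 below, beside 26.4% and 27.3% of all genes tested.

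Short words that marked falling genes in these same samples were also looked for in the 3′ UTRs of the members. The words were AGCTATT and the words GAAGCTA or GCTATTA, and since they were picked on these samples a match is only a description. The longest GENCODE 29 3′ UTR of 6 of the 44 tested members (13.6%) held at least 1, against 22.3% of 11693 tested genes. The log2 differences of the 6 were -0.24 for SEMA3A, -0.1 for PLXNA3, -0.05 for EFNA5, -0.03 for PLXNA2, 0.3 for SEMA7A and 2.98 for SEMA6D. Their median was -0.041, and that of the 38 members without a word was 0.184. Over all genes tested the medians were -0.079 with a word and 0.021 without. The first match in the member with the clearest lower value and in the 2 that rose is shown with the word in capitals.
SEMA3A: atatttagagGAAGCTAacttcatcag
SEMA6D: tcttttgtttGAAGCTAaagagatgtg
SEMA7A: ctaataaacaAGCTATTtattta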

How the data were processed

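RNA-seq of polyadenylated RNA was analysed in 2 control and 2 CHD7 shRNA-2 samples of RKO cells. The authors deposited estimated counts per gene, not normalized, and FPKM values normalized for gene length and depth. The submitters' processing notes name hg38, Bowtie2, RSEM and DESeq2. The annotation, strand setting and filters are not given in the sources used here. RSEM divides reads between similar genes, which makes counts of close copies uncertain.

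Counts were rounded, filtered with filterByExpr, scaled by TMM and tested with the quasi-likelihood test of edgeR 4.0.16 in R 4.3.3, with Benjamini-Hochberg adjustment over all 11955 genes tested. A called gene had an adjusted p under 0.05 and a fold of at least 1.5. SE was derived from the F statistic. With 2 samples per group, a two-sided permutation cannot give a p below 0.333. Alternatives were other scalings, DESeq2 1.42.0, no filter, a replicate block, limma 3.58.1 on log2 FPKM, and leaving out each sample.

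All members may be named. Values per sample are given for called members, the 5 with the smallest p in each direction and the 12 with the highest mean FPKM. Of the pathway list, called genes and the 3 with the smallest p in each direction were named. ABL2, and the values per sample of other members, were added after their values were seen. The members and lists were chosen with earlier results of these data known. Replicate samples differed by more than sampling noise (chi-square per gene of 3.94 and 6.05). Python 3.11.15 was used for sequences and figures.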

Additional observations from a re-analysis of the deposited data

How the results depend on the processing

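Where the replicate numbers shared by the labels were used as a replicate block, 329 genes and 3 members were called, and PLXNB2, SEMA6D and EPHB3 all kept their calls. It left 5 members at an adjusted p under 0.05, without PLXNA1, SEMA4D and SEMA7A. Same-numbered samples deviated in opposite directions (correlation -0.198 across genes), and with the pairing crossed, an alternative chosen after seeing the data, 423 genes, 5 members and 2 effectors were called. The 344 genes called became 221 in DESeq2, 141 without a filter on low counts, 1373 without a fold threshold, 172 with limma on log2(FPKM + 1) and 8 with limma and no filter on FPKM. The 3 members called became 1 in DESeq2, 1 without a filter, 8 without a fold threshold, 1 with limma at either pseudocount and 0 with limma and no filter (18 higher and 1 lower at an unadjusted p under 0.05). The 1 effector called became 0 without a filter, 0 in each of the 3 limma fits (at an unadjusted p under 0.05, 7 higher and 12 lower without a filter, 8 and 5 in the limma fits with a filter and 6 and 5 without) and 6 without a fold threshold. Leaving out 1 sample gave 308 to 380 genes, 1 to 3 members and 0 to 1 effectors, where the lone sample of a group is assumed to vary like the others. ROBO3 turned from -0.18 to 0.05 without CHD7 shRNA-2 sample 1 (range -0.45 to 0.05 without 1 sample), and SEMA3D from -0.07 to 0.01 without control 2 and 0.05 without CHD7 shRNA-2 sample 2 (range -0.2 to 0.05). The causes were not tested. PLXNB2 kept its direction in every fit run, with a log2 difference of 0.58 to 0.67. Scaling by library totals moved the median of all genes to 0.045 and that of the members to 0.221. SEMA6D, EPHB3 and NTN4, under 2 CPM in every sample, rest on at most 28 reads in a sample, which limits any statement on them.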

Other observations

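Several members lie on the same chromosome, some of them close together (RefSeq, GRCh38.p14). On chromosome 7, SEMA3C runs from 80742538 to 80922389, well apart from the others. SEMA3E starts at 83363238, SEMA3A at 83955777 and SEMA3D at 84995553. Their levels differed widely, with SEMA3D and SEMA3A at means of 31.6 and 20 FPKM, SEMA3C at 2.33 and SEMA3E at 0.0775. The log2 differences were -0.07 for SEMA3D, -0.24 for SEMA3A and 0.09 for SEMA3C, none past the threshold, while SEMA3E had too few reads for the test.

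On chromosome 1, EFNA4 starts at 155063740, EFNA3 at 155078837 and EFNA1 at 155127876, with log2 differences of -0.2, 0.13 and 0.24. On chromosome 11, ROBO3 and ROBO4 start at 124865432 and 124883691, and only ROBO3 had enough reads for the test. None of these genes passed the threshold.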
